A study of Homo sapiens with 6 samples.

Results

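The interleukin-1 (IL-1) family and its receptors were examined in U87-MG cells through 9 genes, IL1A, IL1B, IL1RN, IL36B, IL33, IL18, IL1R1, IL1RAP and IL1RL1, of the 61731 genes and loci in the deposited expression table. The 9 genes were chosen by name with their values in these libraries known. Their difference between the groups is therefore given as a description with no test, and tests are given only for other genes. The lists of other genes were also chosen with earlier results of these data known, so their counts are not independent evidence of a direction. The U87-MG line is a long-established culture model of human glioblastoma. The study asked what the M3 muscarinic acetylcholine receptor, encoded by CHRM3, does in such cells, and the table holds total RNA from 3 negative control libraries (NC) and 3 libraries labeled as CHRM3 knockdown (KD), made in the study by lentiviral infection. Which of the knockdown sequences these cells carried is not given in the sources used here, nor whether replicates were grown as separate cultures. Every p-value below therefore sets a group difference against a spread between these libraries that may be technical, moderated across all tested genes. Levels are in TPM, a share of the transcripts of each library that accounts for transcript length and that can therefore be compared between genes.

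IL-1 family cytokines are alarm signals of inflammation. An agonist such as IL-1β or IL-1α binds its receptor chain, an accessory chain shared by several receptors joins, and the paired intracellular domains recruit the adaptor MyD88 and IRAK kinases, which activate NF-kB and MAP kinases. Receptor antagonists occupy the receptor without bringing in the accessory chain. In gliomas, IL-1β from tumor or myeloid cells is known as an inducer of IL-6, IL-8 and matrix metalloproteinases.

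Most of the ligand genes lie in a single cluster on chromosome 2. Bases before the start sites of 4 of them are shown because IL1B, IL1RN and IL36RN were lower in the KD libraries, whereas the groups overlapped for IL1A of the same cluster. RefSeq promoter windows (GRCh38.p14, 250 bases before each start) were found for 7 of the 9 members, the first window listed for each gene is shown, and only bases outside annotated exons are printed, 5′ to 3′ on the strand of the gene. Capitals mark the letters TGANTCA, to which AP-1 factors bind, or TATAAA, the TATA box.
IL1B, chr2:112836904-112837029, minus strand: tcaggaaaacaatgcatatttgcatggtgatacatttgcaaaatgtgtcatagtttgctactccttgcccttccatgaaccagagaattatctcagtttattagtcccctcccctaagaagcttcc
IL1A, chr2:112784591-112784743, minus strand: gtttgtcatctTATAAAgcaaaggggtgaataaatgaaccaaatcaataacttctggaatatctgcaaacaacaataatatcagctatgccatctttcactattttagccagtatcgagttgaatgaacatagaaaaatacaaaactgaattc
IL1RN, chr2:113117721-113117892, plus strand: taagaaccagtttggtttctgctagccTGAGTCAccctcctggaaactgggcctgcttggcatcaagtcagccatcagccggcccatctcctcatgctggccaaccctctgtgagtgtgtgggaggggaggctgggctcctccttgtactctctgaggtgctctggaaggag
IL36RN, chr2:113058388-113058637, plus strand: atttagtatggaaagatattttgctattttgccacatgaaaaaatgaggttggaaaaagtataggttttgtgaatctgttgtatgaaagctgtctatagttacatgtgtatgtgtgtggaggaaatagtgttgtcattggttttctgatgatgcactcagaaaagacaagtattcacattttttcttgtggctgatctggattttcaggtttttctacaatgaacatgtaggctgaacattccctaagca
On either strand, the AP-1 letters were present in 6.57% of all 35116 promoter windows of this length, the TATA letters in 10.7% and an NF-kB consensus in 9.96%. The full IL1A window shown held the AP-1 letters 12 bases and the TATA letters 239 bases before the start, and the IL1RN window shown held the AP-1 letters 223 bases before the start. The AP-1 match of IL1A lies inside the annotated gene, past the bases printed. The other IL1A window, not shown, overlaps the one shown and held the AP-1 letters 105 and 55 bases before its start. The match at 105 bases is the same genomic site as that at 12 bases in the window shown, and that at 55 bases also lies inside the annotated gene. The third IL1RN window, also not shown, held the TATA letters 32 and 30 bases before its start, in overlapping matches on opposite strands. The single IL1B window and both IL36RN windows held none of the 3 motifs, and no member's window held the NF-kB consensus, which says only that these letters are not in these windows. These matches describe sequence and were not tested for binding.

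CHRM3 was at 0.02, 0.09 and 0.13 TPM in NC replicates 1 to 3 and at 0.13, 0.01 and 0.02 TPM in KD replicates 1 to 3. With only traces in the controls as well, a reduction could not be measured in these libraries, so the direction of every difference rests on the labels. The mesenchymal marker VIM was abundant, at 6574 TPM in the NC mean and 7376 TPM in the KD mean, whereas the astrocyte marker GFAP was at 1.16 and 1.13 TPM. Of the leukocyte markers only CSF1R reached the minimum for testing, and TYROBP and CD3E were listed at 0 in all 6 libraries. The summed level of the leukocyte markers was 5.92 to 5.97 TPM in NC and 9.31 to 9.98 TPM in KD, and that of 10 epithelial markers was 14.66 to 16.57 TPM in NC and 19.42 to 22.28 TPM in KD. The first sum followed CSF1R, at 5.44 TPM in the NC mean and 9.17 TPM in the KD mean, and the second KRT8, at 2.27 and 6.73 TPM. The endothelial markers summed to 3.37 to 3.58 TPM in NC and 1.43 to 1.51 TPM in KD, nearly all from KDR. The 7 glial or mesenchymal markers summed to 7644 to 7824 TPM in NC and 8342 to 8581 TPM in KD, mostly from VIM. Of the 6 tested, 4 were higher and only CD44 was lower (limma, adjusted p under 0.05), at 597.3 and 473.5 TPM. Of all tested genes, 12.1% were higher and 24.0% were lower by this threshold. The part of these differences in the results below was not tested.

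Among the members, the agonist IL1B, the agonist IL36B and the antagonist IL1RN were markedly lower in the KD libraries, and the low-level ligand IL33 was lower as well. IL1A overlapped between the groups, the 2 chains of the IL-1 receptor were slightly higher in KD, and IL18 and IL1RL1 were barely detected. Together the 9 genes summed to 510, 515 and 520 TPM in the NC libraries and to 112, 120 and 114 TPM in the KD libraries. In RNA of a whole culture, fewer cells expressing a gene and less RNA per cell cannot be told apart.

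**Figure D1:**
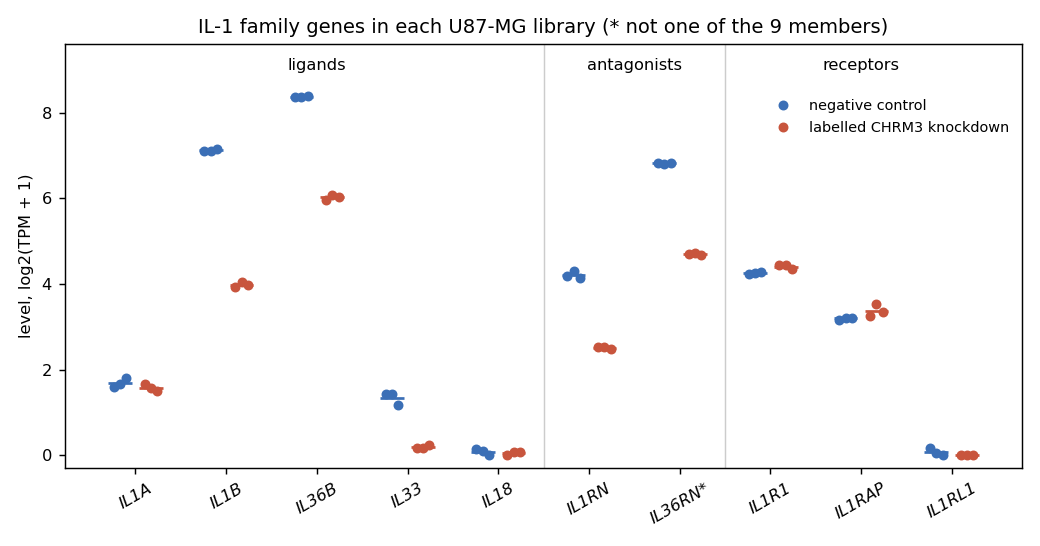
The level of each of the 9 members, and of IL36RN for comparison, is plotted as log2(TPM + 1) for the 3 negative control libraries and the 3 libraries labeled CHRM3 knockdown, with a bar at each group's mean. IL1B, IL36B, IL33, IL1RN and IL36RN lie lower in every KD library than in any NC library, whereas the points of IL1A and IL18 overlap.

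IL1B encodes IL-1β, a secreted cytokine made as a precursor that caspase-1 cleaves. IL1B (ENSG00000125538, chromosome 2 from 112829751 to 112836903, minus strand, GRCh38) was at 136.24, 137.41 and 140.14 TPM in NC replicates 1 to 3 and at 14.29, 15.52 and 14.67 TPM in KD replicates 1 to 3. All 3 KD libraries were far below all 3 controls, and the libraries of each group were close to each other. The mean was 137.9 ± 2.0 TPM (SD, n = 3) in NC and 14.8 ± 0.63 TPM (SD, n = 3) in KD, a ratio of 9.3. The log2 fold change on log2(TPM + 1) was -3.13 with a standard error of 0.0376, which placed IL1B 8th from the most lowered of the 13722 genes tested, those averaging 1 TPM or more.

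IL36B encodes IL-36β, an agonist of the IL-36 receptor best known from skin. It was the most abundant member in both groups. Its level (ENSG00000136696, chromosome 2 from 113022091 to 113052867, minus strand) was 326.80, 328.48 and 333.32 TPM in NC and 61.33, 66.28 and 64.04 TPM in KD. The KD libraries were again all lower, although their level of IL36B remained above that of every other member. Means of 329.5 ± 3.39 and 63.9 ± 2.48 TPM (SD, n = 3 each) gave a ratio of 5.16 and a log2 fold change of -2.35 (standard error 0.0318). The receptor chain specific to IL-36, encoded by IL1RL2, was listed at 0 TPM in all 6 libraries.

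IL1A encodes IL-1α, which acts on the same receptor as IL-1β and also as a membrane-bound or released precursor. IL1A (chromosome 2 from 112773915 to 112784590, minus strand) was at 2.03, 2.15 and 2.51 TPM in NC and at 2.17, 1.95 and 1.84 TPM in KD. KD replicate 1 was above NC replicates 1 and 2, so the groups overlapped. The means were 2.23 ± 0.25 and 1.99 ± 0.168 TPM (SD, n = 3 each), and the log2 fold change was -0.11 (standard error 0.109). IL-1β and IL-1α transcripts therefore stood in different proportion in the groups, with an IL1B over IL1A ratio of 62.3 ± 5.81 in NC and 7.51 ± 0.797 in KD (SD, n = 3 each).

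IL33 encodes IL-33, a nuclear alarmin released from damaged cells. IL33 (chromosome 9 from 6215786 to 6257983) was at 1.71, 1.68 and 1.26 TPM in NC and at 0.12, 0.12 and 0.18 TPM in KD. Every KD library was below every control, but the mean over the 6 libraries was under the minimum of 1 TPM, so the gene was not in the main fit. In a fit without a minimum its log2 fold change was -1.16 (standard error 0.11), and the ratio of the mean TPM values was 11.1. IL18 encodes IL-18, an inducer of interferon-γ, and was at 0.10, 0.07 and 0 TPM in NC and at 0, 0.06 and 0.06 TPM in KD. Both groups held a library listed at 0, and IL18 also overlaps a gene on the opposite strand, so these values show at most traces of RNA.

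Of the antagonists, IL1RN encodes the IL-1 receptor antagonist, which occupies the receptor of IL-1α and IL-1β without signaling. IL1RN (chromosome 2 from 113107214 to 113134016, plus strand) was at 17.13, 18.62 and 16.64 TPM in NC and at 4.77, 4.80 and 4.53 TPM in KD. The antagonist was thus lower in every KD library, as were the agonists IL1B and IL36B. Means of 17.5 ± 1.03 and 4.70 ± 0.148 TPM (SD, n = 3 each) gave a ratio of 3.72 and a log2 fold change of -1.69 (standard error 0.0602).

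The receptor chain IL1R1 binds IL-1α and IL-1β and carries the signal. IL1R1 (chromosome 2 from 102064544 to 102179874, plus strand) was at 17.77, 18.10 and 18.34 TPM in NC and at 20.57, 20.77 and 19.22 TPM in KD. The KD libraries were all slightly higher, and IL1R1 shares its locus with the antisense gene IL1R1-AS1, whose reads cannot be told apart where strand was not used in counting. The means were 18.1 ± 0.286 and 20.2 ± 0.843 TPM (SD, n = 3 each), and the log2 fold change was 0.15 (standard error 0.0442), or 0.22 after median-of-ratios scaling. IL1RAP, the accessory chain that IL1R1 shares with the receptors of IL-33 and IL-36, was at 7.92, 8.28 and 8.27 TPM in NC and at 8.58, 10.58 and 9.12 TPM in KD, on chromosome 3 from 190514051 to 190659750. KD replicate 2 stood above the other KD libraries, and the lowest KD library was only just above the highest control. The log2 fold change of IL1RAP was 0.18 (standard error 0.0802), and 3 genes on the same strand overlap it. IL1RL1, which encodes the IL-33 receptor ST2, was at 0.13, 0.04 and 0 TPM in NC and was listed at 0 in all 3 KD libraries. IL1RL1 also overlaps IL18R1 on the same strand, and at these levels no difference can be read.

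In NC, the order of mean TPM was IL36B, IL1B, IL1R1, IL1RN, IL1RAP, IL1A, IL33, and then IL18 and IL1RL1. The libraries of IL1R1 and IL1RN overlapped in that order, as did those of IL18 and IL1RL1. In KD, IL36B was followed by IL1R1, IL1B, IL1RAP, IL1RN, IL1A and IL33, so IL1R1 stood above IL1B and IL1RAP above IL1RN, with no overlap between these neighbors. IL36B made up 64.0% ± 0.157 of the summed TPM of the members in NC and 55.5% ± 0.785 in KD, and IL1R1 with IL1RAP made up 5.09% ± 0.0462 and 25.7% ± 0.666 (SD, n = 3 each).

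Of the 9 members, 6 reached the minimum for testing. Among these 6, the groups did not overlap with KD lower for IL1B, IL36B and IL1RN, 3 members, against 32.8% of all tested genes, and with KD higher for IL1R1 and IL1RAP, 2 members, against 17.4%. IL33, which was not among the 6, did not overlap either, with KD lower. Since the members were selected on this contrast, nothing is read from these counts. Over the 6 tested members the median log2 fold change was -0.90, and that of all tested genes was -0.06.

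**Figure D2:**
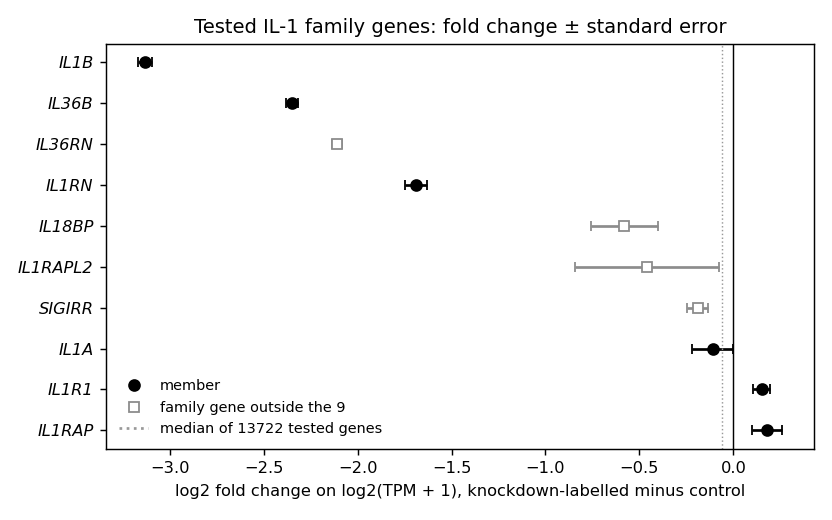
The log2 fold change on log2(TPM + 1), KD minus NC, is plotted with its standard error for the 6 tested members (filled circles) and the 4 tested family genes outside the 9 (open squares), with a dotted line at the median of all tested genes. IL1B, IL36B, IL36RN and IL1RN lie between -3.13 and -1.69, and IL1R1 and IL1RAP lie at 0.15 and 0.18.

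The balance of agonist and antagonist was compared within each library, where the ratio of 2 TPM values does not depend on the scaling of the library. The ratio of IL1B to IL1RN was 7.95, 7.38 and 8.42 in NC and 3, 3.23 and 3.24 in KD. Agonist and antagonist were both lower in KD, and the agonist by more, so the ratio was lower in every KD library. The ratio of IL36B to its antagonist IL36RN was 2.93, 2.97 and 2.98 in NC and 2.44, 2.6 and 2.6 in KD. This ratio was also lower in every KD library, but its means of 2.96 ± 0.0254 and 2.55 ± 0.0934 (SD, n = 3 each) were much closer. The ratio of IL36B to IL1B moved the other way, from 2.39 ± 0.0102 in NC to 4.31 ± 0.0497 in KD (SD, n = 3 each).

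Between ligand and receptor, the ratio of IL1B to IL1R1 was 7.67, 7.59 and 7.64 in NC and 0.695, 0.747 and 0.763 in KD. IL1B transcripts thus outnumbered those of the receptor in every NC library and were fewer than them in every KD library. The ratio of the 2 receptor chains, IL1R1 to IL1RAP, was 2.22 ± 0.0289 in NC and 2.16 ± 0.221 in KD (SD, n = 3 each), and the groups overlapped. These ratios rest on the members' own values and carry no test.

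Of 13 further IL-1 family genes outside the 9, only 4 reached the minimum for testing, and 3 of these were lower in KD while 0 were higher (limma, adjusted p under 0.05, and likewise at an unadjusted p under 0.05). Of all 13722 tested genes, 24.0% were lower and 12.1% were higher by the same threshold. IL36RN, the IL-36 receptor antagonist, had the largest difference of the 4. IL36RN (ENSG00000136695, chromosome 2 from 113058638 to 113065382, plus strand) was at 111.38, 110.60 and 111.73 TPM in NC and at 25.13, 25.48 and 24.60 TPM in KD. Its log2 fold change was -2.11 (standard error 0.027, adjusted p = 1.68e-07, limma), and the groups lay far apart. IL36RN was the most abundant antagonist, and summed with IL1RN it came to 129 ± 0.456 TPM in NC and 29.8 ± 0.586 TPM in KD (SD, n = 3 each).

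IL18BP, a secreted protein that neutralizes IL-18, fell from 1.91 ± 0.342 to 0.953 ± 0.343 TPM (SD, n = 3 each; adjusted p = 0.0451, limma). Its gene overlaps NUMA1 on the opposite strand. SIGIRR, an inhibitory receptor of the family, fell from 34.5 ± 1.79 to 30.2 ± 1.70 TPM (SD, n = 3 each; adjusted p = 0.0423, limma). Both calls were narrow, and they were lost in 11 of 14 and 10 of 15 alternative fits, including those without KD replicate 1, NC replicate 1 or NC replicate 3. IL1RAPL2, a neuronal relative of the accessory chain, varied too widely between libraries to separate the groups, at 24.2 ± 9.94 and 17.4 ± 8.15 TPM (SD, n = 3 each; adjusted p = 0.393, limma), and 5 genes overlap it. IL1F10, which encodes IL-38, was at 1.65, 0.72 and 1.78 TPM in NC and at 0.34, 0.27 and 0.26 TPM in KD. It was lower in every KD library but under the minimum for testing. The decoy receptor IL1R2 and the genes IL36A, IL37, IL18R1 and IL1RAPL1 stayed under 1 TPM in every library, IL36G was under 1 TPM in all but NC replicate 3, and IL18RAP, like IL1RL2, was listed at 0 throughout.

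Along chromosome 2, IL36B, IL36RN, IL1F10 and IL1RN follow each other, whereas IL1B stands apart from them. These 4 genes were all lower in every KD library than in any NC library, as were 32.8% of all tested genes. Since IL36B and IL1RN were selected on this contrast, nothing is read from this count. IL36B and IL36RN start within a short distance of each other on opposite strands, 216.0 and 221.7 kb from the start of IL1B, followed by IL1F10 at 231.1 kb, which was under the minimum for testing, and IL1RN at 270.3 kb. IL1A, which starts at -52.3 kb and is the nearest family gene to IL1B, had overlapping groups, and IL37, IL36G and IL36A, which lie between IL1B and IL36B, were not tested. On either side of the cluster, CKAP2L at -72.2 kb, a mitotic spindle gene, fell by 0.67 on the log2 scale (adjusted p = 0.000447, limma), SLC20A1 at -191.0 kb, a phosphate transporter, fell by 0.33 (adjusted p = 0.000199, limma), and PSD4 at 320.4 kb had a log2 fold change of -0.01 (adjusted p = 0.944, limma).

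Within 500 kb of any member, 62 other protein-coding genes were annotated and 34 were tested, of which 6 were lower and 4 were higher (limma, adjusted p under 0.05), that is 17.6% and 11.8% against 24.0% and 12.1% of all tested genes. Their median log2 fold change was 0.01, against -0.06 for all tested genes. After IL36RN, the lower genes with the largest differences were CRYAB near IL18, a small heat shock protein (-0.94, adjusted p = 0.00847, limma), CKAP2L, and PPP2R1B, a phosphatase subunit (-0.56, adjusted p = 0.00151, limma). The higher genes were PAX8, a transcription factor (0.32, adjusted p = 0.0275, limma), CHCHD5, a mitochondrial protein (0.23, adjusted p = 0.00476, limma), TIMM8B, a mitochondrial import chaperone (0.21, adjusted p = 0.00782, limma), and the histone demethylase KDM4C near IL33 (0.21, adjusted p = 0.0489, limma). The calls of PAX8 and KDM4C were lost in 5 of 15 and 9 of 14 alternative fits, among them those without KD replicate 1, KD replicate 2, NC replicate 1 or NC replicate 3, each of which left 2 higher genes.

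The genes that process and release IL-1 cytokines were compared next, because IL-1β and IL-18 are made as inactive precursors. Of 20 genes in this group, 16 were tested, 2 fell and 2 rose (limma, adjusted p under 0.05), 12.5% each way against 24.0% lower and 12.1% higher among all tested genes. The median log2 fold change was -0.01, against -0.06. CAPN2, the large subunit of m-calpain, a protease that can process the IL-1α precursor, fell from 309.8 ± 1.06 to 182.4 ± 4.22 TPM (SD, n = 3 each), a log2 fold change of -0.76 (adjusted p = 5.43e-06, limma). CASP4, which encodes the inflammatory caspase-4 of the noncanonical inflammasome, fell from 58.9 ± 1.88 to 38.0 ± 1.08 TPM (SD, n = 3 each), a log2 fold change of -0.62 (adjusted p = 8.13e-05, limma). CAPNS1, the small calpain subunit, rose by 0.24 (adjusted p = 0.000834, limma), and NEK7, a kinase needed by the NLRP3 inflammasome, rose by 0.20 (adjusted p = 0.0153, limma).

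CASP1, whose product cleaves the IL-1β and IL-18 precursors, was at 8.57, 8.11 and 6.53 TPM in NC and at 3.45, 5.32 and 6.21 TPM in KD. All KD libraries were below all controls, but the spread among them was wide and the difference did not pass (log2 fold change -0.56, adjusted p = 0.0611, limma), although it passed without KD replicate 3. PYCARD, the adaptor that links inflammasome sensors to caspase-1, was listed at 0 in all 3 NC libraries and at most at 0.06 TPM in KD. The sensor NLRP3 was at 1.37 ± 0.374 and 0.967 ± 0.297 TPM and AIM2 at 13.6 ± 1.31 and 15.5 ± 0.71 TPM (SD, n = 3 each), and neither passed by limma (adjusted p = 0.315 and 0.115). The call of NEK7 was lost without NC replicate 1 or NC replicate 3, which left 1 to 3 higher genes in the group over the fits that each left out a library.

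The relay from receptor to NF-kB and MAP kinases comprised 28 genes, of which 25 were tested, 11 fell and 2 rose (limma, adjusted p under 0.05), that is 44% and 8% against 24.0% and 12.1% of all tested genes. The median log2 fold change was -0.14, against -0.06 for all tested genes. In either direction 0 relay genes passed a log2 fold change of 1. Of all 13722 tested genes, only 164 lower and 92 higher genes did, so nothing is read from this count. SQSTM1, which encodes the scaffold p62, fell the most, from 897.6 ± 9.41 to 539.6 ± 15.7 TPM (SD, n = 3 each), a log2 fold change of -0.73 (adjusted p = 7.41e-06, limma). MAP3K8, a kinase upstream of ERK, fell by 0.44 (adjusted p = 0.0323, limma), MAPK8, which encodes the kinase JNK1, by 0.34 (adjusted p = 0.0174, limma), and PELI3, a ubiquitin ligase of IRAK complexes, by 0.33 (adjusted p = 0.00221, limma). MYD88, the adaptor of the receptor, was at 29.53, 31.27 and 29.92 TPM in NC and at 23.91, 25.56 and 25.83 TPM in KD. It was lower in every KD library, with a log2 fold change of -0.26 (adjusted p = 0.00516, limma).

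IRAK1, the kinase that MyD88 recruits, rose by 0.10 (adjusted p = 0.00795, limma), and MAPK9, which encodes JNK2, rose by 0.19 (adjusted p = 0.0115, limma). IRAK4, the first kinase of the relay, and the ubiquitin ligase TRAF6 had log2 fold changes of 0.03 and 0.01 that did not pass (adjusted p = 0.595 and 0.976, limma). The call of MAP3K8 was lost in 7 of 15 alternative fits, including those without KD replicate 3 or any single NC replicate, and that of MAPK8 was lost without NC replicate 1 or NC replicate 3. Without either of the latter libraries 7 genes of the relay were lower.

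Genes known to rise when cells meet IL-1 were examined as a readout of the pathway. Of 44 such genes 33 were tested, 23 fell and 3 rose (limma, adjusted p under 0.05), that is 69.7% and 9.09% against 24.0% and 12.1% of all tested genes. Of those that fell, 10 passed a log2 fold change of 1, as did 1.20% of all tested genes. The median log2 fold change was -0.49, against -0.06 for all tested genes. The list was written with earlier results of these data known, its MMP genes and CXCL1, CXCL5 and CXCL8 include genes that the study selected on these libraries, and many of its genes also respond to other inflammatory signals, so these counts are not independent evidence of a direction.

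**Figure D3:**
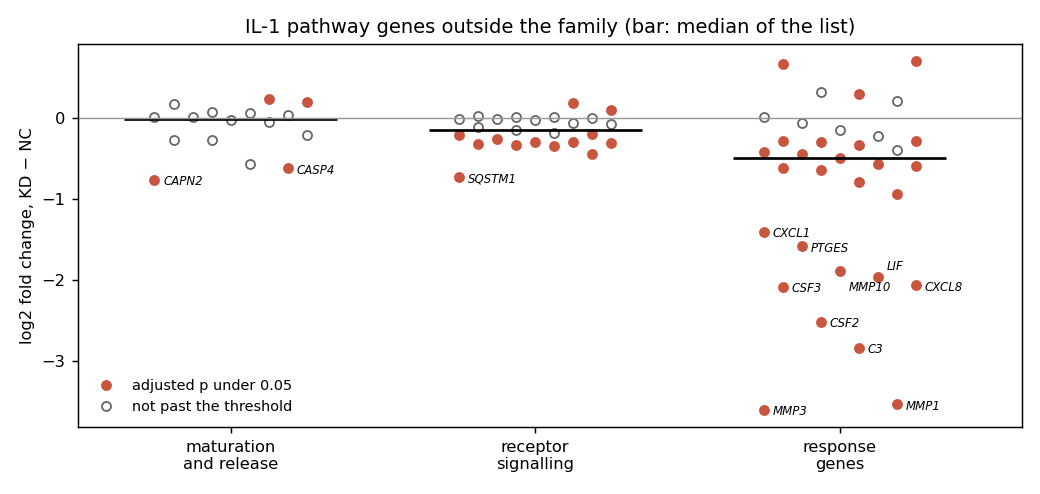
The log2 fold change on log2(TPM + 1), KD minus NC, is plotted for each tested gene of 3 groups outside the IL-1 family, with filled points for a limma adjusted p under 0.05 and a bar at each group's median. The medians are -0.01 for maturation and release, -0.14 for receptor signaling and -0.49 for response genes, and in the last group MMP3 and MMP1 lie lowest.

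MMP3 and MMP1, secreted proteases that degrade matrix, fell the most of the response genes, with log2 fold changes of -3.60 (adjusted p = 2.88e-08, limma) and -3.53 (adjusted p = 1.43e-07, limma). C3, the central complement protein, was at 183.03, 190.50 and 204.81 TPM in NC and at 28.52, 23.00 and 27.60 TPM in KD, a log2 fold change of -2.83 (adjusted p = 5.61e-06, limma). CSF2, which encodes GM-CSF, was at 12.83, 11.13 and 11.05 TPM in NC and at 0.94, 1.23 and 1.52 TPM in KD, a log2 fold change of -2.51 (adjusted p = 3.08e-05, limma). For each of these genes the groups lay far apart.

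Not every known response gene moved down. CCL2, a monocyte chemokine, was at 7.43, 8.26 and 9.84 TPM in NC and at 15.25, 14.74 and 13.17 TPM in KD, a log2 fold change of 0.70 (adjusted p = 0.00298, limma). IL11, a cytokine of the IL-6 family, rose from 5.56 ± 0.215 to 9.40 ± 0.545 TPM (SD, n = 3 each), a log2 fold change of 0.67 (adjusted p = 0.000522, limma). CSF1, which encodes M-CSF, rose by 0.30 (adjusted p = 0.00677, limma). These 3 genes were higher in every KD library than in any NC library. In all, 4 of the 33 tested response genes were, against 17.4% of all tested genes.

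Among the Toll-like receptors, which share the intracellular domain and the MyD88 relay with IL-1 receptors, 2 of 10 genes were tested and 0 passed by limma, also at an unadjusted p under 0.05. Of all tested genes, 24.0% were lower and 12.1% were higher at an adjusted p under 0.05, so nothing is read from 0 of 2. TLR1 had a log2 fold change of -0.11 (standard error 0.231, adjusted p = 0.756, limma) and TLR6 of 0.06 (standard error 0.152, adjusted p = 0.812, limma), with overlapping groups and levels near 1 TPM. TLR2, which was under the minimum for testing, was at 0.61, 0.64 and 0.73 TPM in NC and at 0.15, 0.02 and 0.18 TPM in KD, lower in every KD library.

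Lastly, the genes whose profiles over the 6 libraries were most like those of IL1A and IL1B were found by the Euclidean distance between log2(TPM + 1) values, each taken relative to its control mean. Those nearest to IL1A were UBXN7 (distance 0.0543), GCC2 (0.0567) and ALX1 (0.0582), with log2 fold changes of -0.11, -0.09 and -0.11. Those nearest to IL1B were ENSG00000286171 (distance 0.352), FDCSP (0.4) and C3 (0.62). ENSG00000286171 went from a mean of 7.65 ± 1.58 TPM in NC to 0 in all KD libraries, and FDCSP, a small secreted protein gene, went from 19.1 ± 1.63 to 1.34 ± 0.391 TPM (SD, n = 3 each). Because this distance includes the difference between the groups, genes near each other have similar log2 fold changes by construction. With 0 TPM in KD, the log2 fold change of ENSG00000286171 depends on the pseudocount of 1. The distances to IL1B were larger than those to IL1A.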

How the data were processed

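Total RNA of U87-MG cells was sequenced in 6 libraries, 3 negative controls and 3 labeled as CHRM3 knockdown, grouped by their sample labels. The values that the authors deposited are TPM for each gene, rounded to 2 decimals and summing to 1000000 in each library, so the read depth is unknown and no counting error is given. The submitters' processing notes name fastp, RSEM and GRCh38.p13 without roles or versions. The labels name a SMARTer kit and RNeasy extraction, and the paper a TruSeq kit and TRIzol. All 6 columns were matched to a sample and 0 were left without one.

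The members and the gene lists were chosen with earlier results of these data known. Symbols came from the table of gene names, for 61369 of 61541 Ensembl identifiers, and coordinates from GENCODE 29 (GRCh38). The 13722 genes averaging 1 TPM or more were compared between the groups on log2(TPM + 1), using the limma functions lmFit and eBayes (version 3.58.1, R 4.3.3) with a trended prior and the group as the only term. Benjamini-Hochberg adjustment covered all tested genes, and calls were made at an adjusted p under 0.05. The pseudocount of 1 shrinks the fold change of low genes relative to their ratio of TPM. On simulated data built on these 13722 genes, the procedure found 194 of 200 changed genes and made 8 false calls, or 0 where nothing had been changed. Only genes well above the minimum were changed there, by a log2 fold change of at least 1 in either direction. The share found therefore does not apply to smaller differences.

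The genes named were the 9 members and CHRM3, each further family gene and Toll-like receptor gene that was tested, up to 4 lower and 4 higher called genes with the largest fold changes in each other list, and the 3 genes nearest to IL1A and to IL1B. MYD88, IRAK4, TRAF6, CASP1, PYCARD, NLRP3, AIM2, SLC20A1, PSD4, IL1F10, TLR2, the family genes near 0 TPM and the cell type markers VIM, GFAP, CD44, CSF1R, TYROBP, CD3E, KRT8 and KDR were named after their values were seen. Alternatives varied the pseudocount, the minimum TPM, the scaling, the trend, a replicate block, the fold change limit, and each library left out in turn.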

Additional observations from a re-analysis of the deposited data

How the results depend on the processing

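Over 15 alternative fits the members in the fit kept their direction, as did every named gene that passed the threshold. Of the named genes that did not pass, TRAF6, PSD4, TLR1 and TLR6 lay near 0 and changed sign in 3, 4, 2 and 2 fits, and AIM2 passed with quantile normalization and without NC replicate 2. The log2 fold change of IL1B stayed between -3.21 and -3.06, that of IL36B between -2.38 and -2.28, that of IL1RN between -1.87 and -1.63, that of IL1A between -0.16 and -0.05 (14 fits), that of IL1R1 between 0.13 and 0.23 and that of IL1RAP between 0.11 and 0.25. The median of all tested genes was -0.06, and 0.00 after either median-of-ratios scaling or quantile normalization.

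Counts of genes past the threshold moved by over 1.5 times as follows, and the cause was not tested except where a stricter limit removes genes by construction. Requiring an absolute log2 fold change of 1 or more, further family genes lower went from 3 to 1, maturation genes lower and higher from 2 each to 0, signaling genes lower from 11 to 0 and higher from 2 to 0, response genes lower from 23 to 10 and higher from 3 to 0, neighbors lower from 6 to 1 and higher from 4 to 0, and all tested genes from 3295 lower and 1660 higher to 164 and 92. Further family genes lower were 1 with median-of-ratios scaling, and 1 with quantile normalization, with which signaling genes lower were 7. Signaling genes higher were 1 without the trend. Neighbors higher were 2 with no minimum TPM. Toll-like receptor genes lower went from 0 to 1, TLR2, with a minimum of 0.1 TPM or none.

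Leaving out each library in turn gave 1 to 2 further family genes lower (1 without KD replicate 1, NC replicate 1 or NC replicate 3), 1 to 3 maturation genes higher, 7 to 10 signaling genes lower (7 without NC replicate 1 or NC replicate 3) and 2 to 4 neighbors higher.

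No pairing by replicate number was detectable. The deviations of same-numbered libraries from their group means had correlations of -0.0198, 0.0341 and 0.0334, and those of other-numbered libraries lay between -0.0656 and 0.0336. These values cannot show whether same-numbered libraries were grown or handled together. With a replicate block, further family genes lower were 1 and maturation genes higher were 1, and the other counts stayed within 1.5 times.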
